A study of Mus musculus with 12 samples.

Results

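The liver transcriptome of 6 wild-type (WT) mice was described gene by gene, for how bright each gene was on the arrays and for how far it varied from mouse to mouse. These 6 mice are the wild-type group of a series of 12 male mice, and the other 6 carry the K289R knock-in of Nr5a2, the gene for the nuclear receptor LRH-1; the knock-in arrays were not used here. All 6 were males on the C57BL/6J background, fasted for 24 h, refed for 6 h and killed at 8 am, and 1 liver RNA sample per mouse was hybridised to 1 Affymetrix mouse gene array. The mice are named WT 1 to WT 6 after the replicate numbers of the labels, which tie them to no pair, litter or cage, although mice were housed 5 per cage. The label of WT 4 repeats the strain name after the genotype and was read as WT. All 19938 genes with a named probe set were described, from 35556 probe sets in the table.

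Refeeding after a long fast turns the liver from making glucose and ketones to taking up glucose and storing it as glycogen and fat. Insulin, released as nutrients arrive, acts on hepatocytes to shut down gluconeogenic genes such as Pck1 and to turn on genes of fatty acid synthesis, and the feeding cycle also sets the liver clock. How much and when each mouse eats, and any inflammation or injury it carries, add to these changes, so livers of genetically like mice need not be in the same state. In the 6 livers most genes held to a narrow band, while a small number of genes, led by metallothioneins, serum amyloid A, muscle genes and the repressor Bcl6, differed many-fold between mice.

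Values are linear probe-set intensities, and each set of 6 is given in the order WT 1 to WT 6. An intensity mixes the amount of a transcript with how well its probes bind, so the intensity of a gene was compared between mice and not with the intensity of another gene; ranks below describe the brightness of probe sets. Arrays were on a common scale, with median intensities of 27.4 to 29.2, and log2 values of any 2 arrays correlated across genes at 0.989 to 0.995. WT 1 had the lowest mean correlation with the other arrays, 0.990. The labelled tissue was checked on hepatocyte markers, of which 13 of 13 measured were among the brightest 25% of genes. The Y-linked genes Eif2s3y (97.9 to 179) and Uty (62.4 to 86.9) measured above the median intensity on every array, and Xist, expressed in female cells, lay at 6.30 to 7.80. No array of these mice was repeated, so variation between mice cannot be told apart from variation between arrays, and nothing beyond the replicate labels says how the 6 livers were spread over days.

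The 25 brightest genes were taken without Rn7sk, a small nuclear RNA at rank 3 on average, and only a part of them is named here. Albumin (Alb) measured 6644, 7006, 7316, 6826, 6932 and 7678, with a mean of 7067 ± 373 (SD, n = 6), and lay at rank 2 or 3 on every array. Apolipoproteins E and A2, transferrin (Trf), fetuin-A (Ahsg), apolipoprotein A1, transthyretin (Ttr) and retinol-binding protein 4 (Rbp4), all secreted into plasma, followed within the first 15 ranks on each array. Enzymes among these 25 were the alcohol dehydrogenase Adh1, the cytochrome P450 enzymes Cyp2e1, Cyp2d26 and Cyp4a14, catalase (Cat) and the carbonic anhydrase Car3. The brightest probe set was that of Baiap2l1, an adaptor protein of actin at the cell membrane, at 7837 ± 168 (SD, n = 6) and rank 1 on every array. Since probes differ in response, its place above Alb is an order of probe sets and not of transcript amounts.

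The bright end of the ranking was nearly the same in every mouse. Of the 100 brightest genes on each array, 79 were shared by all 6 arrays, and 121 genes were in that class on at least 1 array. The 100 genes that were brightest on average held 15.9% ± 0.260 (SD, n = 6) of the summed intensity of all genes, from 15.6% to 16.2%, and the brightest 1000 held 50.3% ± 0.467. Within the 25, the place of Car3 moved most, between ranks 9 and 39. Car3, which hydrates carbon dioxide, measured 3788, 5356, 3971, 5223, 5871 and 6003. It was low on WT 1 and WT 3 and higher, without overlap, on the other 4 arrays.

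Most genes differed little between mice. The median SD was 0.140 on the log2 scale, near 10.2% of the intensity, and it was 0.0847 among the 100 brightest genes. Among the brightest 25% of genes the 10 with the smallest SD had coefficients of variation of 1.2% to 1.67%. They were Nprl3, a regulator of the nutrient sensor mTORC1, the chromatin remodelling subunit Smarce1, the mitochondrial genes Atp5b, Ndufa10 and Cox6c, the deacetylase Sirt2, Apoe, the mitochondrial fission gene Dnm1l, Babam2 and the endosomal GTPase Rab7. Atp5b, the beta subunit of the mitochondrial ATP synthase, measured 3353, 3267, 3368, 3273, 3313 and 3354. Apoe, which carries lipids in plasma, measured 6509.5, 6650.3, 6469, 6631, 6716 and 6561. No mouse stood apart in either gene.

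To find genes that varied more than others of like brightness, the variance of each gene over the 6 arrays was set against the variance limma estimates for genes of that intensity. Of 19938 genes, 59 (0.296%) exceeded it at a Benjamini-Hochberg adjusted p under 0.05, and 1073 (5.38%) did so at an unadjusted p under 0.05. These 59 are called wide-spread below, and the 1073 genes are said to pass the unadjusted threshold. The SD of the 59 ran from 0.71 to 1.96, and their highest array exceeded their lowest 3.13-fold to 26.9-fold. None of the 59 was among the 100 brightest genes, 5 were among the brightest 1000, and 26 were among the brightest 4985 of the 19938 genes. Below the median brightness lay 15. The class of the 100 brightest is small among 19938 genes, so its count says little about bright genes. Where the highest array lay was uneven: 30 of the 59 peaked on WT 1, 12 on WT 6, 8 on WT 3, 7 on WT 5, 2 on WT 4 and 0 on WT 2. Over all 19938 genes it was uneven too, as 3724, 4501, 3350, 3052, 3117 and 2194 peaked on WT 1 to WT 6. Of the 30 that peaked on WT 1, 25 share 1 pattern, described below, so they are not separate observations.

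**Figure D1:**
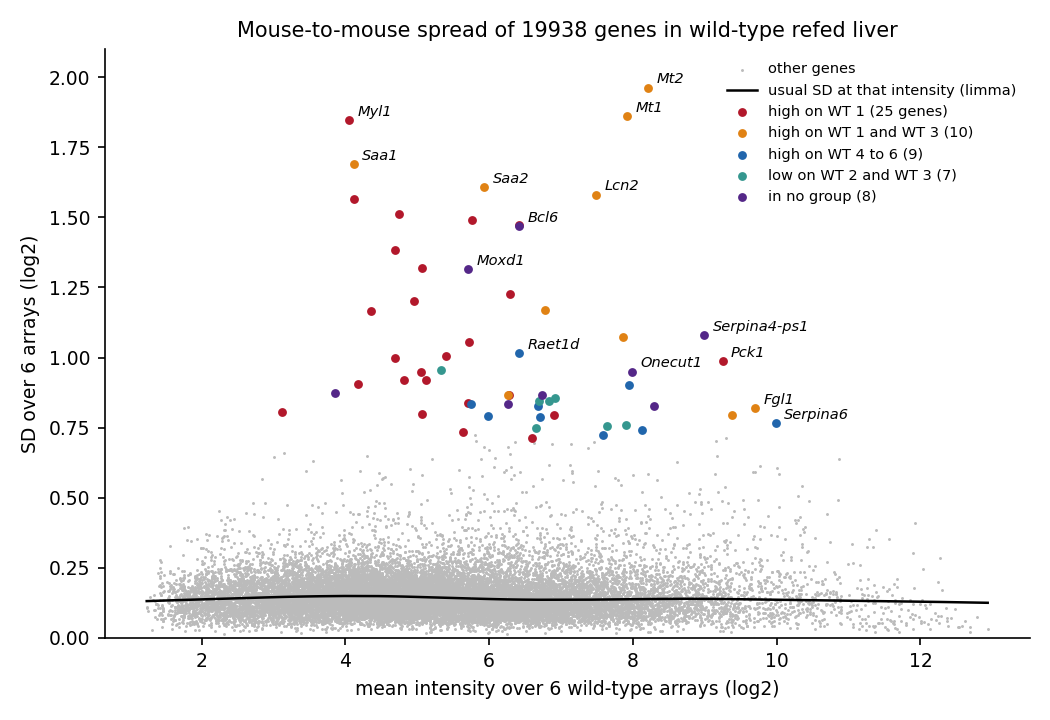
Each point is 1 of 19938 genes, with its mean log2 intensity over the 6 wild-type arrays on the horizontal axis and its SD over the same arrays (log2) on the vertical axis. The black line is the SD limma expects at that intensity, and coloured points are the 59 wide-spread genes, whose SD runs from 0.71 to 1.96 against a median of 0.140.

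The count depends on the setting and on a few arrays. With all 35556 rows of the table in the limma fit, named or not, 0 were called at an adjusted p under 0.05 and 2140 passed an unadjusted 0.05, and among the 10467 genes with a mean log2 of at least 5 the test called 15. After quantile normalization it called 27, and without the robust prior 20. Without WT 1 the same test called 30 genes, 29 of them among the 59, and without WT 1 and WT 3 it called 16, of which 15 were among the 59. Without WT 3 it called 61 and without WT 6 it called 39. By their pattern over the mice the wide-spread genes fell into 4 groups of 25, 10, 9 and 7 genes, with 8 genes left outside. A pattern over 6 mice is short, so the groups serve to describe these arrays.

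**Figure D2:**
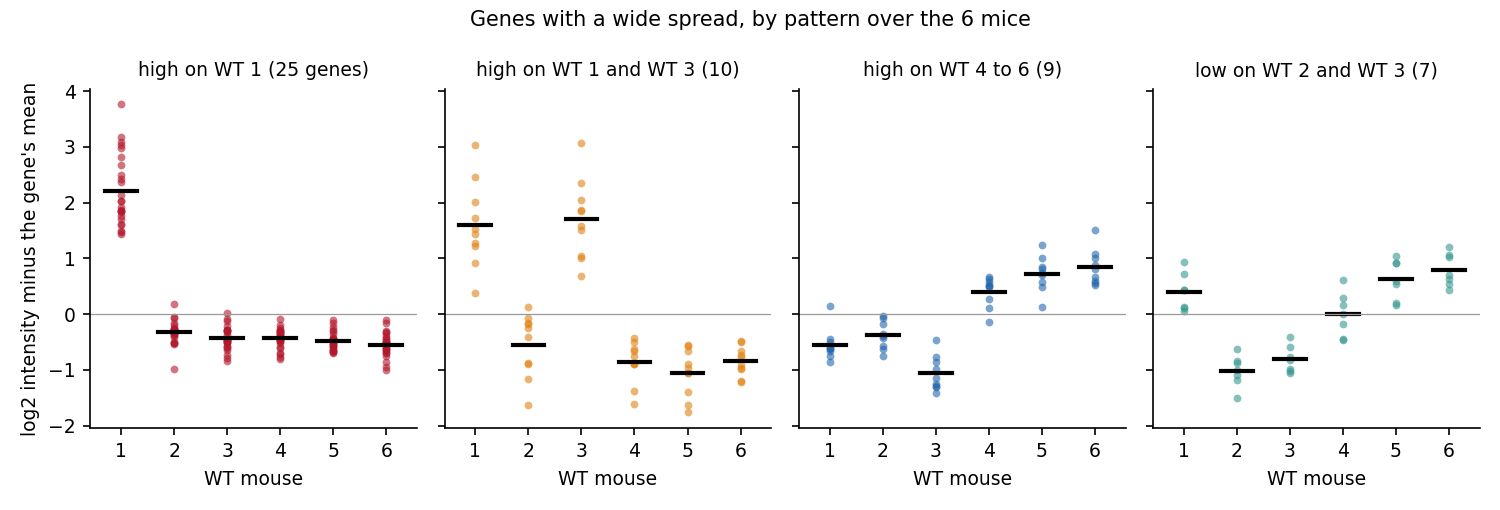
Deviation of each wide-spread gene from its own mean (log2, vertical axis) in each wild-type mouse (horizontal axis), 1 panel for each pattern group; points are genes and black bars their mean. The first group averages 2.22 above the mean on WT 1 and below it on the other 5 arrays, the second 1.60 on WT 1 and 1.70 on WT 3, the third 0.40 to 0.85 on WT 4 to WT 6, and the fourth -1.02 on WT 2 and -0.81 on WT 3.

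The largest group, 25 genes, was high on WT 1 alone; 9 of the 25 are in the list of skeletal muscle markers and 16 are not. The fast-muscle myosin light chain Myl1 measured 225, 8.38, 9.98, 9.75, 11.2 and 10.2, so WT 1 exceeded the mean of the other mice, 9.91 ± 1.03 (SD, n = 5), 22.7-fold. The giant sarcomere protein titin (Ttn) measured 228, 18.9, 17.9, 17.9, 16.6 and 16.5. Skeletal muscle actin (Acta1) measured 672, 69.0, 60.2, 52.8, 54.9 and 46.8. In each of these genes WT 1 stood alone and the other 5 mice lay close together.

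Others in the group were the calcium pump of fast fibres Atp2a1 (12.4-fold over the mean of the other 5), fast troponin T (Tnnt3, 7.99-fold), the muscle creatine kinase Ckm (5.84-fold), myoglobin (Mb, 4.13-fold), nebulin (Neb, 4.27-fold) and the heart and muscle fatty acid binding protein Fabp3 (7.47-fold). Of 18 measured skeletal muscle markers 9 were wide-spread and 14 passed the unadjusted threshold, and 16 peaked on WT 1, against 18.7% of all genes. The mean log2 intensity of the list was 6.62, 4.70, 4.65, 4.63, 4.55 and 4.55. The fast myosin Myh4 had a smaller step, at 33.7, 14.3, 13.1, 12.2, 12.4 and 13.8 (limma adjusted p = 0.191), and the slow troponin Tnnt1 had none, at 20.6, 20.5, 21.6, 17.2, 17.0 and 19.5. Desmin (Des), a filament protein of muscle that is also used as a marker of hepatic stellate cells, measured 173, 34.6, 38.9, 27.9, 31.1 and 28.9. Of 12 stellate cell and fibroblast markers Des was the one that passed the unadjusted threshold. Dcn, a matrix proteoglycan, lay at 1065 to 1356, and Lrat, which stores vitamin A, lay at 104 to 164 with its maximum on WT 6.

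Without WT 1, none of the 25 genes was wide-spread, and their median SD over the remaining 5 mice was 0.149. Over those 5 mice the median SD of all genes was 0.133. The 12 measured markers of pancreatic acinar cells had list means of 4.06, 4.18, 4.06, 4.16, 4.04 and 3.98 on the log2 scale, and none passed the unadjusted threshold. Of 8 adipocyte markers 2 passed it, Fabp4 and Car3, and none was wide-spread; the list means were 5.43, 5.37, 5.21, 5.30, 5.22 and 5.21, highest on WT 1. Fabp4, a fatty acid carrier of fat cells and macrophages, measured 50.1, 28.3, 34.8, 26.3, 32.8 and 34.5, while Adipoq, the adiponectin gene, stayed at 6.28 to 8.36.

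Of the genes in this group, 3 are known mainly for roles outside muscle, and all had their highest value on WT 1. Pck1, the phosphoenolpyruvate carboxykinase that insulin represses on refeeding, measured 2194, 689, 442, 573, 420.0 and 314, and WT 1 exceeded the mean of the others, 488 ± 145 (SD, n = 5), 4.50-fold (limma adjusted p = 0.0146). Angptl4, a fasting-induced inhibitor of lipoprotein lipase, measured 263, 85.1, 70.5, 77.3, 79.6 and 86.6. Egr1, an immediate early transcription factor, measured 336, 116, 122, 68.5, 111 and 82.4. Of 14 alternatives run gene by gene, the call held in 10 for Pck1, 6 for Egr1 and 4 for Angptl4. The muscle markers were high on the same array, and their part in these 3 values was not tested. Of 12 gluconeogenesis genes Pck1 was wide-spread and 2 passed the unadjusted threshold. The second, G6pc, the glucose-6-phosphatase that releases glucose, measured 1936, 1219, 805, 1441, 1323 and 2032 and was higher on WT 6 than on WT 1. Fbp1 and Pcx, enzymes of the same route, lay at 2745 to 3521 and 1023 to 1178.

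The second group held 10 genes that were high on WT 1 and WT 3, and most belong to the response of liver to inflammation or metals. The metallothioneins Mt1 and Mt2 bind zinc and copper and are strongly induced by metals, glucocorticoids and cytokines. Mt2 had the largest SD of all genes, 1.96, and measured 2415, 159, 1078, 97.0, 95.8 and 175, a 25.2-fold range (limma adjusted p = 0.0017). Mt1 measured 699, 132, 2038, 93.5, 92.5 and 123, a 22.0-fold range (limma adjusted p = 0.0017). The order within the pair differed: Mt2 was highest on WT 1 and Mt1 on WT 3. Mt3 and Mt4, the members known from brain and skin, had no such range, at 71.7 to 108 and 12.9 to 14.7.

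The stretches before the starts of these genes are shown because Mt1 and Mt2 had the largest SDs of all genes and respond to metals through short metal response elements. They are the 250 bases upstream of the RefSeq starts (build GRCm38.p6, plus strand), Mt1 at chr8:94178839-94179088 and Mt2 at chr8:94172368-94172617. Capitals mark matches on either strand to the metal response core TGCGCNC or TGCACNC, and matches that overlap count as 1. Promoters were found in that table for 49 of the 59 wide-spread genes.
Mt1: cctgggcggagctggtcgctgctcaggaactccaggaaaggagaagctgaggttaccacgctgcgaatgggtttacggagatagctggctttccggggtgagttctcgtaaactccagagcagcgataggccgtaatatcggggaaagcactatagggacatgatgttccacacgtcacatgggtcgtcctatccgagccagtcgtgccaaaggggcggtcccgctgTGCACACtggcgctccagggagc
Mt2: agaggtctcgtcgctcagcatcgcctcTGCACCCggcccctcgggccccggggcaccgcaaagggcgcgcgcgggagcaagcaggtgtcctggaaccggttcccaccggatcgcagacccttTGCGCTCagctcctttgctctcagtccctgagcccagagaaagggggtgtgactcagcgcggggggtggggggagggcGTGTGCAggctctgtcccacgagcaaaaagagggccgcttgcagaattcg
The window of Mt1 held 1 match and that of Mt2 held 3. Bases outside these windows, including those after the RefSeq start, were not searched, so this is no count of all sites of either gene. Of 32851 promoter windows of the same length in the table, 21.4% held at least 1 such match and 0.77% at least 3. After global alignment the windows were identical at 48.1% of positions.

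Serum amyloid A proteins, carried on high-density lipoprotein, are the classic acute phase proteins of the mouse. Saa2 measured 246, 19.7, 254, 33.5, 38.8 and 32.7, and Saa1 measured 96.1, 7.72, 62.9, 9.40, 8.37 and 7.53. Both were high on WT 1 and WT 3, without overlap with the other 4 arrays (limma adjusted p = 0.00206 and 0.00206). Saa1 and Saa2 are near-identical neighbouring genes, so their probe sets may share signal and the pair should be read as 1 observation. Their upstream windows are shown to make the likeness visible. Saa1 is on the minus strand at chr7:46742981-46743230 and Saa2 on the plus strand at chr7:46751583-46751832. Capitals mark bases that differ from the other gene or have no partner in the alignment.
Saa1: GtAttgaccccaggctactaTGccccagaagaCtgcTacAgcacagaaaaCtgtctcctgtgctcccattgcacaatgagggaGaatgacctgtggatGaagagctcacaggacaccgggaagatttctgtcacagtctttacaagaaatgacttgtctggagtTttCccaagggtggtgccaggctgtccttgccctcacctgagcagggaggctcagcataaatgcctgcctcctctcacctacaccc
Saa2: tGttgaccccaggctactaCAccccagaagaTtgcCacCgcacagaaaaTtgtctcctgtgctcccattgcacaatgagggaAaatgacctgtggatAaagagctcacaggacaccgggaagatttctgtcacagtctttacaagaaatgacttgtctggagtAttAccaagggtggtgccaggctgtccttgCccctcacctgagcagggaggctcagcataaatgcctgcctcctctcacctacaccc
The 2 windows were identical at 94.8% of aligned positions, with 238 shared bases, 11 mismatches and 2 gaps.

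Other members of the group were Lcn2, which sequesters the iron carriers of bacteria, at 487, 159.6, 919.9, 96.2, 53.0 and 92.1, and Orm2, an acid glycoprotein, at 547, 175, 660.5, 152, 119.5 and 141. Cxcl1, a chemokine that attracts neutrophils, measured 362, 104, 225, 80.7, 52.4 and 47.3. These 3 genes were also higher on WT 1 and WT 3 than on any other array, and WT 2 came next in each. The window upstream of Cxcl1 (plus strand, chr5:90890995-90891244) is shown because it held 1 match to GGGANNTTC, the core of sites for the inflammatory factor NF-kB. The match, in capitals, reads on both strands over one stretch and was counted once, and 3.23% of all windows held at least 1.
Cxcl1: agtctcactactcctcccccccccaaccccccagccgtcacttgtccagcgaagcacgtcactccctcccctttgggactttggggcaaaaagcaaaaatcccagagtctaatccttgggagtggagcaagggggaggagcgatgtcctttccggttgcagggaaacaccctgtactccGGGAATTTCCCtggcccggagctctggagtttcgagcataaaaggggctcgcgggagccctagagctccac
Of the 8 genes of the group with a promoter in the table, Cxcl1 was the one with this match.

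Fgl1, a hepatokine, and Steap4, a metalloreductase, measured 1574, 911, 1666, 585, 448 and 526 and 1610.1, 561, 1078, 422, 449.5 and 479. Dnajc12, a cochaperone, measured 99.4, 69.0, 229, 45.9, 52.6 and 54.5 and was highest on WT 3. The calls of Fgl1 and Steap4 held in 6 of the 14 alternatives each. Without WT 1, 8 of the 10 genes were still wide-spread, and without WT 1 and WT 3 none was (the test then called 16 genes in all). Skeletal muscle markers, by contrast, were high on WT 1 and not on WT 3.

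Acute phase genes beyond this group followed the same mice with smaller steps. The acute phase list also holds genes of the group, such as Saa1, Orm2 and Steap4. Its counts and correlation are thus not of outside genes alone. Of 24 measured members, 5 were wide-spread and 15 passed the unadjusted threshold. In 22 of 24 the 2 highest arrays were WT 1 and WT 3. The highest was WT 3 in 15 and WT 1 in 8, against 16.8% and 18.7% of all genes. How many of all genes had both on top was not counted. The serum amyloid P component Apcs measured 813, 622, 1458, 484, 366 and 469 (limma adjusted p = 0.0518). Lbp, which binds bacterial lipopolysaccharide, measured 1428, 876, 1302, 621, 586 and 570.4, and the leucine-rich glycoprotein Lrg1 measured 2548, 1914, 2991, 1481, 1468 and 1272. In all 3 genes WT 1 and WT 3 were above the other mice, and WT 2 lay between them and WT 4 to WT 6. Haptoglobin (Hp), a bright gene that binds free haemoglobin, measured 4513, 4306, 4989.9, 3223, 3082 and 3192, so WT 2 sided with WT 1 and WT 3 in it. The exceptions were Hamp, the iron hormone hepcidin, and its copy Hamp2. Hamp measured 3069, 3102, 2839, 2245, 2843 and 3127. The mean of all pairwise correlations between list members over the 6 mice was 0.72, against 0.0127 over all genes; without WT 1 and WT 3 it was 0.21.

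Genes of interleukin-6 and Stat3 signalling split in their pattern. Stat3 itself, the interleukin-6 receptor subunit Il6ra and the coactivator Bcl3 peaked on WT 1, with ranges of 153 to 366 for Il6ra and 185 to 407 for Bcl3. Stat3 measured 634, 452, 467, 388, 348 and 347, short of the adjusted threshold (limma adjusted p = 0.693). The feedback inhibitor Socs3 was even, at 72.1, 52.4, 62.7, 59.3, 57.5 and 50.6. The kinase Pim1 was higher on WT 4 to WT 6, at 86.0, 78.8, 84.8, 132, 137 and 127. Of 15 members 3 were wide-spread (Cxcl1, Fgl1 and Cish) and 11 passed the unadjusted threshold. Markers of neutrophils and monocytes, the cells such signals recruit, had list means of 4.15, 4.17, 3.99, 3.95, 3.95 and 3.91, and none of 11 passed that threshold. The list was dim, with 1 of 11 members above the median intensity, so it says little about these cells. Its mean pairwise correlation was 0.33.

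Genes of the unfolded protein response, which expand the folding capacity of the endoplasmic reticulum, were highest on WT 3 in 12 of 13 cases; over all genes 16.8% were highest on that array. List means were 10.27, 10.03, 10.55, 9.96, 9.84 and 9.85. Creld2, a folding factor, measured 976, 861, 1725, 952, 600.3 and 517, the cochaperone Dnajb9 measured 501, 416, 742, 226, 258 and 406, and the chaperone Hspa5 (BiP) measured 3774, 3087, 4195, 2885, 2416 and 2244. No member was wide-spread and 7 passed the unadjusted threshold, and the smallest limma adjusted p was that of Dnajb9, 0.0946. Herpud1, which serves protein degradation at the endoplasmic reticulum, was the exception, with its maximum on WT 1 (1908, 1238, 1497, 981, 1268 and 1127). Members correlated at 0.70 on average, at 0.14 without WT 1 and WT 3, and at 0.48 without WT 3 alone. Acute phase genes were high on WT 3 too, and their part in these values was not tested.

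Cholesterol synthesis set WT 1 apart in the other direction. This pathway, driven by the factor Srebf2, turns acetyl-CoA into cholesterol over many steps. The list mean was 8.68, 9.57, 9.47, 9.42, 9.19 and 9.26 on the log2 scale, and 17 of 19 measured members were lowest on WT 1, against 20.4% of all genes. Hmgcs1, which opens the route, measured 709.8, 2005, 1660.5, 1605, 1050.4 and 1255. Lss, which closes the sterol ring, measured 269.9, 671, 645, 581, 449 and 479, and Dhcr7, the last reductase, measured 283, 748, 609, 633, 513 and 521. WT 1 was lowest and WT 2 highest in each of the 3.

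No member was wide-spread, yet 16 of 19 passed the unadjusted threshold, and the smallest limma adjusted p was that of Hmgcs1, 0.144. Idi1, Cyp51, Mvd and Nsdhl, further enzymes of the route, had SDs of 0.42, 0.45, 0.46 and 0.43. Ebp, the sterol isomerase, was even at 539 to 605. Insig1, which holds the sterol sensor in the endoplasmic reticulum, measured 1542, 2523, 2919.7, 2595, 2828 and 2897, low on WT 1 and alike in the other 5. Mean pairwise correlation was 0.68 over 6 mice and 0.29 without WT 1. The muscle markers were high on WT 1, and their part in the low values was not tested. On the same array the lists of fatty acid synthesis, male-biased genes and major urinary proteins were also below their means, by -0.39, -0.31 and -0.29 (log2). The apolipoprotein list differed from its mean by -0.02 and the oxidative phosphorylation list by 0.02, against -0.58 for cholesterol synthesis. The cause of these differences was not tested.

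The upstream window of Hmgcs1 (plus strand, chr13:119690101-119690350) is shown as the gene of this route with the largest SD. Capitals mark its match to TCACNCCAC, the core of the classic sterol regulatory element.
Hmgcs1: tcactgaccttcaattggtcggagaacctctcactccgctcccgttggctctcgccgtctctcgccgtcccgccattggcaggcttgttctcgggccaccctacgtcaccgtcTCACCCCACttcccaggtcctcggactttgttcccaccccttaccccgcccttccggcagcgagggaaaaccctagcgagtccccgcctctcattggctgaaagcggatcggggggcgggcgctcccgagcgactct
Of 15 list genes with a promoter in the table Hmgcs1 was the one with this match, and 1.05% of all windows held it.

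Fatty acid synthesis had another order of mice. Of 19 measured lipogenic genes 11 passed the unadjusted threshold and 13 were highest on WT 6, against 2194 of all 19938 genes. In 15 the 2 lowest arrays were WT 1 and WT 3. The lowest was WT 1 in 11 and WT 3 in 7, against 20.4% and 16.1% of all genes. How many of all genes had both lowest was not counted. List means were 8.67, 9.04, 8.80, 9.15, 9.30 and 9.42. Thrsp, a lipogenic nuclear protein that responds to carbohydrate and thyroid hormone, measured 113, 187, 113, 174, 334 and 354; it was wide-spread (limma adjusted p = 0.0463), a call that held in 2 of the 14 alternatives and was lost without WT 1 (limma adjusted p = 0.0783). Pklr, the liver pyruvate kinase induced by glucose, measured 417, 549.6, 413, 676, 927 and 962, and Acss2, which makes acetyl-CoA from acetate, measured 303, 533, 314, 650.5, 659 and 637. Fasn, the fatty acid synthase, measured 931, 1795, 1521, 1879, 1980.0 and 2187; its low array was WT 1, with WT 3 closer to the rest. Scd1, the stearoyl-CoA desaturase, measured 3873, 2933, 2794, 3762, 5223 and 5530.1, and here WT 1 was not low but WT 2 and WT 3 were. As lists, fatty acid and cholesterol synthesis were both lowest on WT 1 (-0.39 and -0.58 from their means), and on WT 3 they lay on opposite sides (-0.26 and 0.21).

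The third pattern group held 9 genes that were on average high on WT 4, WT 5 and WT 6 and low on WT 3. Nr1d1 (REV-ERB alpha), a haem-sensing repressor of the clock and of metabolic genes, measured 57.7, 81.4, 57.5, 157, 169.6 and 184 (limma adjusted p = 0.0297), a call that held in 6 of the 14 alternatives. Its paralogue Nr1d2 had the same 3 mice on top, at 46.6, 33.2, 42.5, 68.5, 69.9 and 74.8 (limma adjusted p = 0.276). Core members of the clock had narrower ranges, 95.6 to 107 for Arntl (BMAL1), 92.8 to 114 for Per2 and 37.8 to 42.6 for Dbp. Per1, which responds at once to hormones and feeding, measured 95.2, 78.9, 46.0, 42.5, 47.1 and 39.2 and was high on WT 1 and WT 2. Of 17 measured clock genes 1 was wide-spread and 6 passed the unadjusted threshold, and their mean pairwise correlation was 0.01.

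Upp2, a liver uridine phosphorylase, measured 75.4, 97.3, 38.7, 162, 172 and 146. Serpina6, the plasma carrier of corticosterone, measured 1124, 772, 411, 1094, 1812 and 1536, and Sucnr1, the succinate receptor, measured 40.1, 47.0, 32.1, 88.1, 94.1 and 126. Raet1d, a ligand of the immune receptor NKG2D, measured 55.6, 55.2, 35.9, 122, 120.5 and 244, highest on WT 6. In these 4 genes WT 3 was the lowest mouse, and WT 6 or WT 5 the highest. Hsd3b2 measured 183, 165, 201, 431, 303 and 588; it belongs to a steroid dehydrogenase family with near-identical copies and is uncertain for that reason. Of the 9 genes, 6 were still wide-spread without WT 1, and the calls of Sucnr1, Serpina6 and Hsd3b2 held in 6, 4 and 4 of the 14 alternatives. Without WT 1 and WT 3 there were 3 (Raet1d, Hsd3b2 and the predicted gene Gm21286).

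The fourth group, 7 genes, was low on WT 2 and WT 3. Cd36, a fatty acid transporter, measured 199, 60.1, 61.1, 106, 228 and 175. Igfbp1, the insulin-repressed binding protein of insulin-like growth factors, measured 198, 57.3, 58.2, 75.3, 115 and 211. Depp1, a target of the fasting factor FOXO, measured 118, 40.2, 85.4, 174, 173 and 176. The first 2 genes were lowest on WT 2 and WT 3 with nearly equal values, while WT 2 was lowest for Depp1. Cyp26a1, which degrades retinoic acid, measured 43.4, 21.9, 19.8, 29.0, 82.7 and 92.5, and the steroid enzyme Hsd17b6 measured 262, 105, 158, 291, 449 and 323. The P450 enzyme Cyp2c38 and Klhl24, an adaptor for ubiquitin ligases, completed the group. All 7 were wide-spread without WT 1, and 6 of 7 without WT 1 and WT 3, so their spread was also present among WT 2, WT 4, WT 5 and WT 6.

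Fasting-responsive genes with smaller spreads included Pdk4, the kinase that blocks glucose oxidation, at 118, 55.0, 67.5, 121, 123 and 135, the phosphatidate phosphatase Lpin1 at 161, 99.6, 91.6, 129.7, 185 and 252 and the acyl-CoA thioesterase Acot2 at 181, 104, 75.1, 143, 213 and 196. WT 2 and WT 3 were the 2 lowest mice in each of the 3, though none was wide-spread (limma adjusted p = 0.147, 0.133 and 0.107). Core enzymes of fatty acid oxidation were even, with SDs of 0.11 for Acadm, 0.12 for Hadha and 0.09 for Cpt2. Of 21 members of that list 1 was wide-spread (Angptl4) and 7 passed the unadjusted threshold.

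The 8 wide-spread genes outside the groups fell into clusters of under 5 genes, Cish, Onecut1 and Serpina4-ps1 in one and Gdpd3 and Serpina7 in another, and 6 of the 8 were wide-spread without WT 1 and WT 3 too. Bcl6, a transcriptional repressor that growth hormone holds down through STAT5, measured 228, 27.5, 113, 313, 54.9 and 32.0, an 11.4-fold range (limma adjusted p = 0.00212, and 0.00471 without WT 1 and WT 3). It was high on WT 4 and WT 1, intermediate on WT 3 and low on the other 3. Cish, a STAT5-induced inhibitor of cytokine signalling, measured 54.6, 88.7, 58.9, 33.9, 150.5 and 137. Socs2, another inhibitor induced by growth hormone, measured 64.6, 34.7, 33.1, 43.4, 78.6 and 117 and missed the threshold (limma adjusted p = 0.0518).

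Onecut1 (HNF6), a hepatocyte transcription factor, measured 123, 438, 155, 143, 447 and 496. Its values formed 2 levels without overlap, 438 to 496 on WT 2, WT 5 and WT 6 and 123 to 155 on WT 1, WT 3 and WT 4. The 3 mice that were high for Onecut1 were the 3 that were low for Bcl6, and they were also the highest 3 for Cish. Serpina4-ps1, a pseudogene of the serpin family, measured 254, 683, 480.1, 181, 909.9 and 1265, again with WT 2, WT 5 and WT 6 on top. Bcl6 was set beside these 3 clustered genes after its values were seen, so the shared order is a description of 6 mice.

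Moxd1, a monooxygenase-like gene with male-biased expression in mouse liver, measured 20.05, 57.2, 43.7, 205, 100.1 and 20.1, and its high mice were WT 4 and WT 5. Etfbkmt, a mitochondrial lysine methyltransferase, measured 222, 64.4, 105, 44.1, 158 and 141. Serpina7, the thyroxine-binding globulin, measured 318, 225, 842, 179.7, 212 and 427, and Gdpd3, a lysophospholipase, measured 10.1, 11.4, 49.5, 11.9, 11.03 and 12.03. In the last 2 genes WT 3 was the high mouse. Bcl6, Moxd1 and Serpina4-ps1 were the 3 genes that stayed wide-spread in each of the 14 alternatives run gene by gene, which leave out the fit on all rows, where nothing was called.

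**Figure D3:**
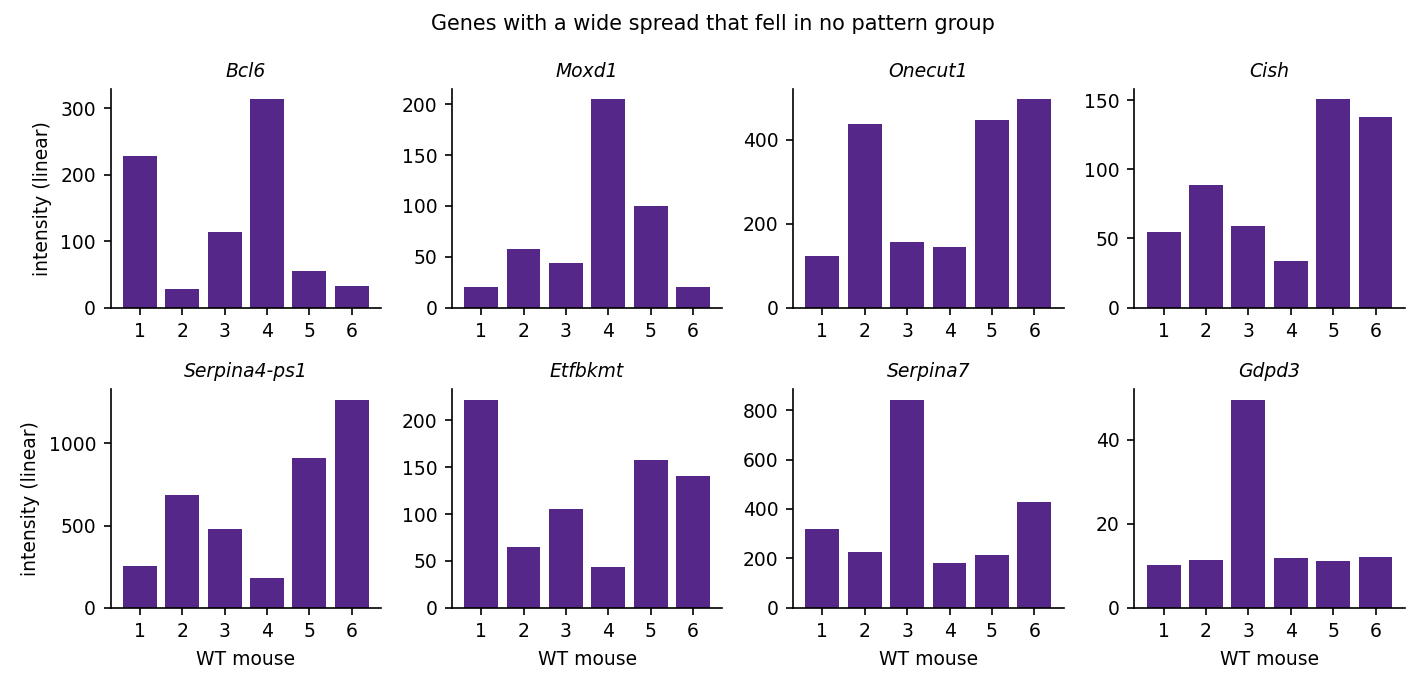
Linear intensity (vertical axis, from 0) of the 8 wide-spread genes outside the pattern groups in mice WT 1 to WT 6 (horizontal axis), 1 bar per array. Bcl6 runs from 27.5 to 313, and the 3 mice with its lowest bars have the 3 highest bars for Onecut1, Cish and Serpina4-ps1.

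Male-biased genes, whose pattern growth hormone pulses maintain, were mostly bright (14 of 15 among the brightest 25% of genes), and 6 passed the unadjusted threshold. Elovl3, a fatty acid elongase that follows the clock and androgens, measured 1799, 1235, 1006, 2459, 3004 and 2629.5, with WT 4, WT 5 and WT 6 above the others (limma adjusted p = 0.0703). Slco1a1, an organic anion transporter, measured 599, 624, 599, 881, 915 and 1241 and had the same 3 mice on top. Hsd3b5, a male-specific steroid dehydrogenase, was low on WT 1 only, at 614, 1264, 1047, 1129, 1164 and 1269.7. Of the 3 major urinary protein genes measured, all were highest on WT 6 and lowest on WT 1; Mup21 measured 139, 181, 169, 215, 184 and 303. They belong to a cluster of near-identical genes, so values of single members are uncertain.

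Enzymes that metabolise drugs and steroids tended to be low on WT 3: 14 of 26 P450 genes of families 1 to 3 and 12 of 18 conjugating enzymes were lowest there, against 16.1% of all genes. Cyp2b10, a target of the xenobiotic receptor CAR, measured 60.6, 77.4, 25.1, 77.5, 96.9 and 58.4, and Cyp3a11, the main drug-metabolising P450 of mouse liver, measured 1083, 1164, 987, 1567, 1490.3 and 1719.8. The glutathione transferase Gstm3 measured 501, 737, 501, 1069.9, 775 and 1080.3, low on WT 1 and WT 3. Of the P450 genes 11 passed the unadjusted threshold and 1, Cyp2c38, was wide-spread, while 8 of the 18 conjugating enzymes passed and none was wide-spread. Cyp7a1, the first and rate-limiting enzyme of bile acid synthesis, measured 345, 756, 367, 974, 553 and 615, and Cyp8b1, which sets the share of cholic acid, measured 1211, 1542, 822, 1819, 1504 and 1428. Both were low on WT 3, and Cyp7a1 was as low on WT 1. Export pumps and transporters of bile acids were steadier, with SDs of 0.07 for Abcb11 and 0.13 for Slc10a1.

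Nr5a2, the gene for LRH-1, showed no unusual spread, at 335, 268, 289.4, 327, 317 and 282, or 303 ± 27.1 (SD, n = 6). Its partner in bile acid feedback Nr0b2 (SHP) measured 336, 223, 221, 257, 304 and 277. Among 28 nuclear receptors 1 was wide-spread (Nr1d1) and 4 passed the unadjusted threshold, including Pparg, the fat-storage receptor, at 93.0, 72.0, 67.4, 80.1, 125 and 127, and the xenobiotic receptor Nr1i3 (CAR) at 611, 495, 369, 619.9, 482 and 421.

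Among markers of the other cells of the liver, those of Kupffer and sinusoidal endothelial cells correlated most over the mice. Stellate, T and B cell and erythroid lists had mean pairwise correlations of -0.02, -0.01, 0.01 and -0.02. Cholangiocyte markers, at 0.29, and neutrophil and monocyte markers, at 0.33, lay between. Of 5 erythroid markers 3 passed the unadjusted threshold. No marker of these lists was wide-spread apart from desmin. In bulk RNA fewer cells of a type and less RNA per cell cannot be told apart. Of 12 Kupffer cell markers, genes of the resident macrophages, 11 were lowest on WT 3 and 10 highest on WT 5, against 16.1% and 15.6% of all genes, and 5 passed the unadjusted threshold. Vsig4, a complement receptor, measured 229.7, 239, 156, 211, 338 and 289.2, the scavenger-associated protein Cd5l measured 142, 152, 90.3, 146, 167 and 122, and Clec4f, a lectin of Kupffer cells, measured 156, 173, 136, 174, 216 and 173. In all 3 WT 3 was low and WT 5 high. The list means were 6.62, 6.76, 6.33, 6.69, 6.93 and 6.64, and mean pairwise correlation was 0.62, or 0.44 without WT 3.

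Sinusoidal endothelial markers had a different low mouse: 8 of 12 were lowest on WT 2, against 14.6% of all genes. On WT 1, 7 were highest, against 18.7% of all genes. Lyve1, a hyaluronan receptor, measured 139, 71.3, 128, 76.8, 103 and 111, and the scavenger receptor Stab2 measured 193, 153, 156, 195, 195 and 187. Of the 12, 2 passed the unadjusted threshold, Lyve1 and Bmp2, a bone morphogenetic protein. Bmp2 measured 73.5, 56.4, 45.8, 68.3, 78.9 and 68.9, low on WT 3 instead. Mean pairwise correlation of the list was 0.56, and 0.32 without WT 2. Markers of T and B cells were dim and even, and none passed that threshold.

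**Figure D4:**
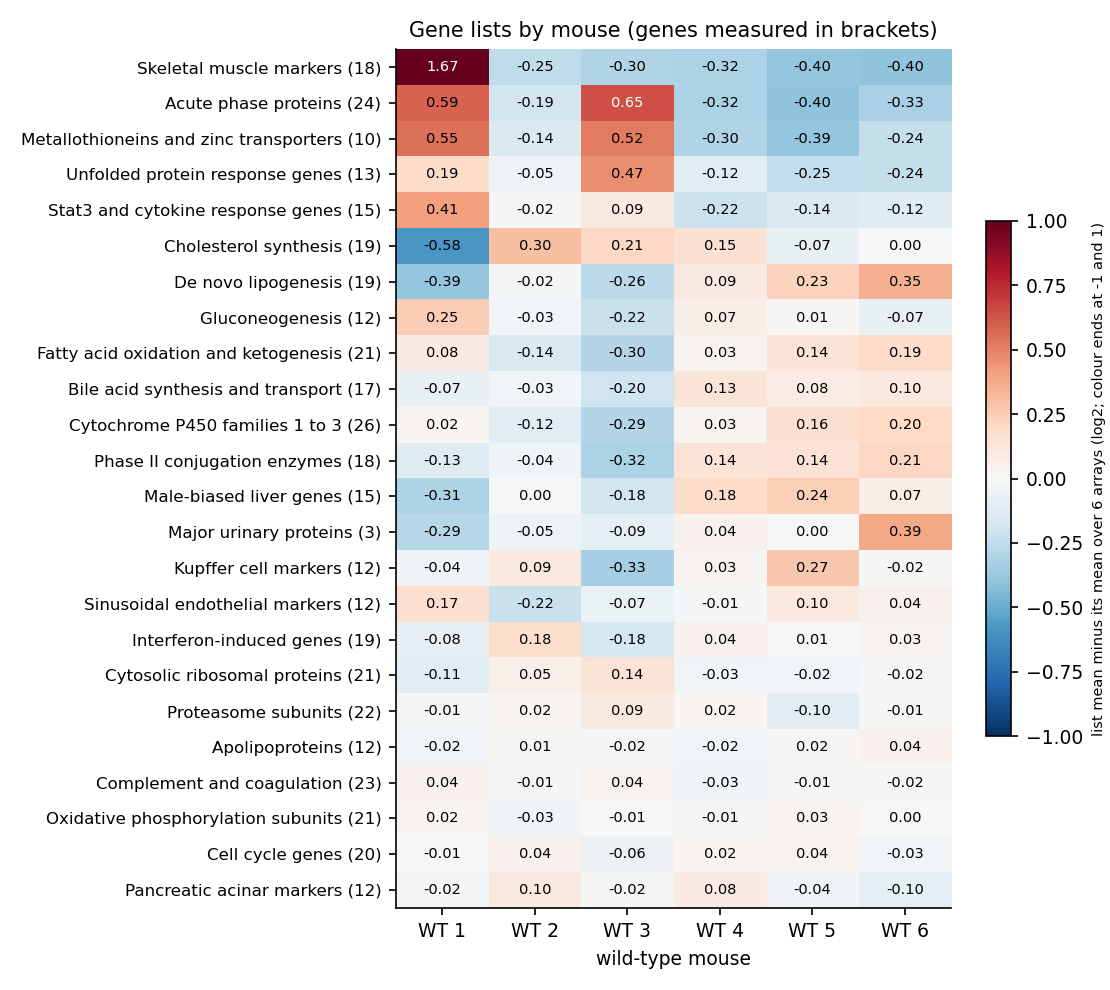
Mean log2 intensity of 24 gene lists in each wild-type mouse, minus the mean of the list over the 6 arrays; rows are lists, columns are mice, and the number in each cell is the deviation. Muscle markers stand 1.67 above their mean on WT 1, cholesterol synthesis 0.58 below, acute phase genes 0.59 and 0.65 above on WT 1 and WT 3, and the lists in the bottom rows stay within 0.10.

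Several core functions were even across the mice. Of 23 complement and coagulation genes, 21 oxidative phosphorylation subunits, 22 proteasome subunits and 20 cell cycle genes, 0 were wide-spread and 0 passed the unadjusted threshold in this limma fit, against 5.38% of all genes. No other tool was run on these counts. Median SDs of these lists were 0.10, 0.08, 0.10 and 0.15, against 0.140 over all genes. The cell cycle list was thus no steadier than other genes. It was also dim, with 5 of 20 members above the median intensity. At a share of 5.38%, lists this short hold few such genes, so a count of 0 says little by itself. Complement and coagulation factors are secreted by hepatocytes like the acute phase proteins, and their list mean differed by 0.08 at most between mice, against 1.05 for the acute phase list. Apolipoproteins had list means of 11.30, 11.33, 11.30, 11.30, 11.34 and 11.36, and 1 of 12, Apoa4, passed the unadjusted threshold, with an SD of 0.38. Of 14 urea cycle and amino acid genes 1 passed the unadjusted threshold.

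Over the 10467 genes with a mean log2 of at least 5, the 6 mice spread along several directions. Component 1 of a principal component analysis took up 38.3%, and the mice scored 12.3, 1.05, 15.7, -7.21, -11.99 and -9.81 on it. WT 1 and WT 3 were thus at one end and WT 4 to WT 6 at the other, with WT 2 between. The genes with the largest positive loadings were Mt2, Mt1, Lcn2, Saa2, Cxcl1, Orm2, Acta1 and Fgl1, and those with the most negative were Raet1d, Upp2, Nr1d1, Sucnr1, Thrsp, Tsc22d1, Onecut1 and Cyp26a1. The second held 26.7%, with scores of 15.5, -11.6, -7.78, -3.78, 4.38 and 3.25, and separated WT 1 from WT 2. Muscle genes, Mt2, Cd36 and Igfbp1 lay on its positive side, and Moxd1, Chrna4 and the cholesterol genes Hmgcs1, Lss, Dhcr7, Cyp51, Idi1 and Mvd on its negative side. The third held 17.4% and placed WT 3 and WT 6 (9.22 and 8.80) against WT 2, WT 4 and WT 1 (-8.00, -6.96 and -5.62), with Serpina4-ps1, Serpina7 and Mt1 on one side and Pck1, Atp2a1 and Acta1 on the other.

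**Figure D5:**
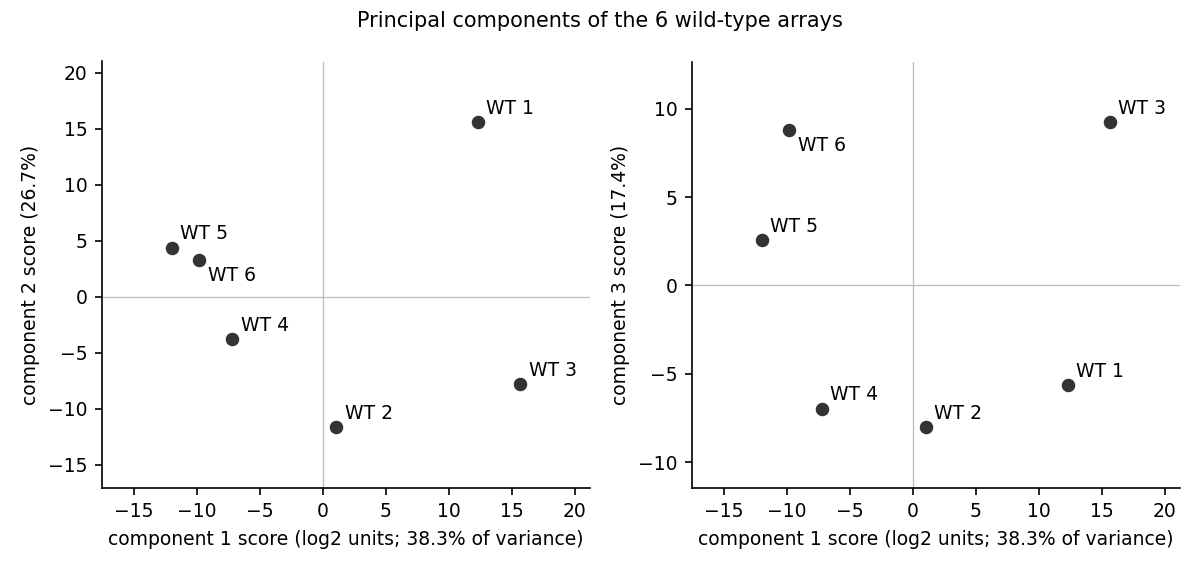
Scores of the 6 wild-type arrays on components 1 and 2 (left) and 1 and 3 (right), in log2 units, computed over 10467 genes; each point is a mouse. WT 1 and WT 3 lie at 12.3 and 15.7 on component 1 and are separated on component 2 (15.5 and -7.78).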

How the data were processed

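Liver RNA of 6 WT mice was measured on Affymetrix Mouse Gene 1.0 ST arrays, and the authors deposited linear intensity values per probe set, made with Affymetrix Expression Console per the submitters' processing notes; no source used here gives its version or summarization method. Log2 of the deposited values was used with no further scaling. The platform annotation pairs 21789 of the 35556 probe sets with a single symbol and 1621 with more than 1, and 12146 are not in it. The single-symbol sets, of which 21698 matched a RefSeq gene, gave 19938 genes, keeping the brightest of several probe sets (999 genes). Spread was tested with limma 3.58.1 (R 4.3.3; intercept, trended and robust prior): each variance, with 5 degrees of freedom, over the prior variance at that intensity, by an upper-tail F test adjusted by Benjamini-Hochberg, threshold 0.05. The scripts were tested on simulated data. With the SD of 100 genes multiplied by 4, the test recovered 13 of them, and with it multiplied by 10, 89. Both sets of 100 were in 1 simulated run, which had 1 false call among the other genes. A gene that was not called wide-spread can therefore still vary between mice. Wide-spread genes were clustered by average linkage on 1 minus Pearson r, divided at 0.3, keeping groups of at least 5. Correlations over 6 mice describe these arrays and carry no p. Genes were named by brightness, SD, component loadings and place in the gene lists; Serpina7, Socs2 and others singled out by pattern were chosen after their values were seen. The members and lists were chosen with earlier results of these data known. Nothing in the labels says more about batches, the p-values measure only the spread between these 6 arrays, and their number limits the precision. Genes without a matched probe set were not analysed here.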

Additional observations from a re-analysis of the deposited data

Results flagged for a closer look

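A value was taken to stand apart where the gap between the extreme array and its nearest neighbour, as a share of the whole log2 range over 6 arrays, exceeded Dixon's 95% critical value. Chance gives this in about 1 in 20 groups of samples, and 19 of the 148 genes named in the report showed it, 13 of them high on WT 1. Over all 19938 genes, those standing apart high numbered 245, 199, 182, 97, 71 and 43 on WT 1 to WT 6. Those standing apart low numbered 189, 73, 113, 47, 76 and 105. The 148 named genes had partly been chosen for their spread, so their share is a description.

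High on WT 1 were the muscle genes Acta1 (gap 0.854 of the range), Atp2a1 (0.902), Ckm (0.820), Des (0.818), Fabp3 (0.857), Mb (0.918), Myh4 (0.843), Myl1 (0.911), Neb (0.861), Tnnt3 (0.936) and Ttn (0.950). The mean of the skeletal muscle list stood apart in the same way, at 0.926. Angptl4 (0.844) and Egr1 (0.635) were also high on WT 1.

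Low on WT 1 were Insig1, which retains the sterol sensor (0.772), the steroid dehydrogenase Hsd3b5 (0.734) and the acetylcholine receptor subunit Chrna4 (0.645). On WT 3, Gdpd3 (0.892) and transferrin, Trf (0.626), were high. On WT 4, hepcidin, Hamp, was low (0.708).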

How the results depend on the processing

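The 59 wide-spread genes became 27 after quantile normalization, 15 with the filter at a mean log2 of 5, 16 without WT 1 and WT 3, 20 without the robust prior and 0 on all 35556 rows (limma; 2140 at an unadjusted p under 0.05); leaving out 1 mouse gave 30 to 61, with 30 without WT 1 and 39 without WT 6. Equal medians gave 42, all probe sets averaged 55, a pseudocount of 16 gave 58 and no intensity trend 51. The median SD of 0.140 became 0.134 after quantile normalization, 0.135 with the filter, 0.0881 with the pseudocount and 0.125 without WT 1 and WT 3, and 0.133 to 0.141 leaving out 1 mouse. Component 1 held 55.0% without WT 1 and WT 3 and 38.5% to 48.9% leaving out 1 mouse, and the 100 brightest genes kept 97 to 99 members leaving out 1 mouse and 94 with all probe sets averaged.

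Without WT 1 and WT 3, mean pairwise correlation was 0.23 for muscle, 0.21 for acute phase, 0.14 for the unfolded protein response, 0.30 for cholesterol synthesis, 0.39 for lipogenesis, 0.45 for Kupffer and 0.83 for endothelial markers. Leaving out 1 mouse gave 0.22 to 0.85, 0.67 to 0.77, 0.48 to 0.82, 0.29 to 0.73, 0.68 to 0.79, 0.44 to 0.66 and 0.32 to 0.74 for the same lists in that order. Lipogenesis was at 0.66 after quantile normalization and Kupffer markers at 0.73 with the filter. None of these 7 correlations changed sign; the cause of the changes was not tested. Over the 14 alternatives run gene by gene, 549 calls of wide-spread genes were kept and 265 lost; the fit without the robust prior kept 20 of 59. No paired analysis was possible because 1 group was described and nothing was compared with it.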

Other observations

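Ribosomal protein genes, the core of the translation machinery, were highest on WT 3 in 12 of 21 cases, against 16.8% of all genes. Their list means were 9.21, 9.37, 9.46, 9.29, 9.30 and 9.30 on the log2 scale, and 1 of 21 passed the unadjusted threshold. Proteasome subunits, which degrade proteins, were lowest on WT 5 in 12 of 22 cases, against 16.3% of all genes. Their list means were 8.61, 8.64, 8.71, 8.64, 8.52 and 8.61.

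Interferon-induced genes had another order, with list means of 6.46, 6.72, 6.36, 6.58, 6.55 and 6.57, highest on WT 2 and lowest on WT 3. None of the 19 measured was wide-spread and 6 passed the unadjusted threshold (limma). Their mean pairwise correlation was 0.10, so members did not share 1 order of mice. Heat shock proteins, chaperones of the cytosol, were highest on WT 1 in 6 of 10 cases, against 18.7% of all genes. Their list means were 9.08, 8.88, 8.89, 8.87, 8.72 and 8.87, and 2 passed the unadjusted threshold. Of 12 glycogen genes, 8 were lowest on WT 3, against 16.1% of all genes, and 2 passed the unadjusted threshold.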
